A study of Mus musculus with 6 samples.

Results

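The purine metabolism genes examined here were Nt5e, Ada, Slc28a2, Enpp3, Pnp and Xdh, 6 of the 32285 genes in the count tables, taken by symbol and followed through the epithelial and T cells of the mouse small intestine. Cells of the small intestinal epithelium were captured in droplets from 3 IE-HuR-/- mice and 3 control littermates, 1 library per mouse, to ask how loss of the RNA-binding protein HuR alters gene expression in each cell type. IE-HuR-/- mice carry floxed HuR (HuR fl/fl) and the villin-Cre transgene, which is active in the intestinal epithelium and not in T cells, and control littermates carry HuR fl/fl without Cre. The labels call the control genotype wild-type. All mice had a C57BL/6 background and were matched for age and gender. The labels give normal feeding, whereas the study's methods describe withdrawal of food beforehand. The level of a gene is given as CPM, its share, scaled to 1000000, among all unique molecular identifiers (UMIs, 1 per captured RNA molecule) of a class of cells in a library. Cells were placed in classes by gates on marker genes, so every class is named "-like".

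The 6 libraries held 60706 barcodes, with 66396951 to 91818560 UMIs in control libraries and 59518012 to 65925616 UMIs in IE-HuR-/- libraries. Between 5121 and 10131 cells per library were enterocyte-like, at a median of 1332 to 2223 UMIs per cell, and 701 to 1203 were T-like. Epithelial cells that passed no gate numbered 844 to 1095 per library and had 28.5% to 32.8% mitochondrial UMIs, against 13.7% to 15.2% in enterocyte-like cells. Elavl1, which encodes HuR, was at 30.0 ± 1.63 CPM (SD, n = 3) in enterocyte-like cells of control libraries and at 30.5 ± 0.486 CPM (SD, n = 3) in the others. The groups overlapped, and the fitted log2 difference was 0.20 upward (adjusted p = 8.77e-04, edgeR). Which part of the transcript was counted is not known here, so this checks neither the deletion nor the labels, on which every direction given rests.

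The 6 genes form a route from nucleotides outside the cell to urate inside it. Enpp3 encodes an ectoenzyme of the brush border that cleaves extracellular ATP to AMP, and Nt5e encodes CD73, the ectoenzyme that takes the phosphate off AMP and leaves adenosine. Slc28a2 encodes CNT2, a sodium-coupled carrier that brings purine nucleosides into the cell. Ada encodes adenosine deaminase, which turns adenosine into inosine, Pnp encodes the phosphorylase that splits inosine to hypoxanthine, and Xdh encodes xanthine dehydrogenase, which makes urate. Enterocytes arise in the crypt, move up the villus and are shed at its tip, and their expression changes along the way.

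The genes lie on 5 mouse chromosomes (positions in GRCm38, the build named mm10 in the labels), each as a protein-coding gene. Nt5e spans chr9:88327197-88372092 on the plus strand and has 9 exons, and Ada spans chr2:163726584-163750239 on the minus strand with 12 exons. Slc28a2 lies on the plus strand at chr2:122426477-122461137, Enpp3 on the minus strand at chr10:24772406-24842823, Pnp on the plus strand at chr14:50931082-50965237 and Xdh on the minus strand at chr17:73883895-73950196. RefSeq promoters of this build were available for 5 of the 6, all but Xdh. The sequence before the start of transcription is shown for Ada, Slc28a2 and Enpp3, which rose together towards the villus tip, and for Pnp, which rose little. Each is printed 5′ to 3′ on the strand of the gene (minus for Ada and Enpp3, plus for Slc28a2 and Pnp) from the 250 bases before the RefSeq start in GRCm38.p6. Bases in annotated exons, the 30 next to the start of Enpp3 and the 1 next to that of Pnp, were left out. The windows of Enpp3 and Pnp lie inside the gene spans given above. The sequence before the outermost annotated start of these genes was not examined. Capitals mark matches on either strand to GGGCGG (the GC box), to CCAAT (the CCAAT box), to TATAAA (the TATA box), to GATAA (the GATA motif), to TTTATG (the CDX motif) and to CAAAG (part of the HNF4 motif).
Ada, chr2:163750240-163750489: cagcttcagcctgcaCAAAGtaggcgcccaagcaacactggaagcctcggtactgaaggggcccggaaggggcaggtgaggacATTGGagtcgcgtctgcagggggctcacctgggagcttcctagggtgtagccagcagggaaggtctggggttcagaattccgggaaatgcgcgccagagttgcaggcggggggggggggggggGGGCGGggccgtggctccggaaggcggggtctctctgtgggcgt
Slc28a2, chr2:122426185-122426434: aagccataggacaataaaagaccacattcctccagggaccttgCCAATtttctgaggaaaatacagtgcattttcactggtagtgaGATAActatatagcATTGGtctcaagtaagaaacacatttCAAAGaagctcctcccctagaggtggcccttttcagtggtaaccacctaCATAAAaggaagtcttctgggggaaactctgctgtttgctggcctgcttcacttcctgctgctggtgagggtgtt
Enpp3, chr10:24836226-24836445: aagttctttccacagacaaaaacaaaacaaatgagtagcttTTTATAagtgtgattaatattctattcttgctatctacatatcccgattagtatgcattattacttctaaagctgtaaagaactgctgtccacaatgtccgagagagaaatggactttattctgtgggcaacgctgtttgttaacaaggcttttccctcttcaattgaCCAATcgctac
Pnp, chr14:50944053-50944301: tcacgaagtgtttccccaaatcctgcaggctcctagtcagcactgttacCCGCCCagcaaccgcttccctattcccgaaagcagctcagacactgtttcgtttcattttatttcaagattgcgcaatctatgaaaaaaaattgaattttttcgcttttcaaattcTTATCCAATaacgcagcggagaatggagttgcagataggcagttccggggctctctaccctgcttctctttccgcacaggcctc
Guanine and cytosine made up 72% of the 250 bases before the start of Nt5e, which lie within annotated exons and are not shown. The share was 67.2% for Ada, 46.8% for Pnp, 45.2% for Slc28a2 and 36.8% for Enpp3, with a median of 52.4% over 32851 RefSeq promoters. A GC box was found before Nt5e (4 matches, some overlapping), Ada and Pnp, and 32.7% of all promoters held one. CCAAT was found before Ada, Slc28a2, Enpp3 and Pnp, and in 33.8% of promoters. In Pnp it shares 1 base with a GATAA match on the other strand. The CDX letters stood before Slc28a2 and in 10.8% of promoters, CAAAG before Ada and Slc28a2 and in 48.6%, TATAAA before Enpp3 and in 12.4%, and GATAA before Slc28a2 and Pnp and in 22.6%. No motif was common to Nt5e, Ada, Slc28a2 and Enpp3.

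Some of the members have close copies nearby, which bears on how reads were divided. The coding sequence of Pnp was identical to that of Pnp2 at 851 of 867 bases (98.2%), and Pnp2 lies within the annotated span of Pnp. Slc28a2 and its neighbour Gm14085 (Slc28a2b) were 94.8% identical, and 35.4% of the 50-base windows of the Slc28a2 transcript also occurred in Gm14085. Reads from such stretches could not be assigned to 1 gene, so the levels of Pnp and Slc28a2 are uncertain to that extent. Gm14085 was at 0.741 ± 0.169 CPM (SD, n = 6) in enterocyte-like cells and Pnp2 at 164 ± 8.60 CPM (SD, n = 6).

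To test whether the genes belong to the villus tip, enterocyte-like cells with at least 3000 UMIs were ranked within each library by 7 tip markers (Apoa4, Creb3l3, Egfr, Klf4, Krt20, Pmp22 and Clca4a), after each cell had been thinned to 3000 UMIs, and cut into 3 tiers of equal size, lowest, middle and highest, of 644 to 1230 cells each. None of the 6 genes served for the ranking. Nt5e, Ada, Slc28a2 and Enpp3 rose steeply from the lowest to the highest tier in all 6 libraries, and Pnp and Xdh rose slightly. Differences were tested with edgeR on the UMI sums of the highest and lowest tier with library as a block. Nt5e in the lowest and middle tiers and Slc28a2 in the lowest stood at or below the upper end of their ranges in erythroid-like cells (16.0 to 32.3 and 31.0 to 101.4 CPM), which should lack brush border enzymes, and the part of free RNA in these low levels was not tested.

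Nt5e was at 6.78 CPM at the lowest, 9.66 at the median and 13.7 at the highest of the 6 libraries in the lowest tier. In the middle tier it was still at 5.71 to 21.7 CPM. In the highest tier it reached 279 CPM at the lowest, 440 at the median and 539 at the highest. Nearly all of the rise thus fell between the middle and the highest tier, where the level was 21.0 to 63.3 times that of the middle tier of the same library. The log2 difference of the highest over the lowest tier was 5.65 ± 0.0917 (SE, adjusted p = 4.4e-13 in edgeR), rank 9 among 10723 genes tested.

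Ada rose more evenly. It went from 102 to 217 CPM in the lowest tier (median 171) to 390 to 1356 CPM in the middle tier (median 788) and 4690 to 7313 CPM in the highest (median 6237). No library of a tier overlapped one of the next, and the log2 difference from lowest to highest was 5.45 ± 0.154 (SE, adjusted p = 8.79e-10 in edgeR, rank 13). Slc28a2 stood at 23.4 to 36.7 CPM in the lowest tier (median 35.6), at 37.1 to 144 CPM in the middle tier (median 75.2) and at 833 to 1407 CPM in the highest (median 1122). Its log2 difference was 5.32 ± 0.135 (SE, adjusted p = 4.19e-10 in edgeR, rank 15). The carrier and the deaminase lay close to each other in the order of genes by fold, which by itself shows no link between them. Gm14085, the copy of Slc28a2, had 4.94 (adjusted p = 1.31e-07, edgeR).

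Enpp3 had the most gradual course of the 4. It was at 111 to 207 CPM (median 148), 400 to 685 CPM (median 584) and 1549 to 1954 CPM (median 1703) from the lowest to the highest tier, with a log2 difference of 3.83 ± 0.135 (SE, adjusted p = 7.1e-09 in edgeR, rank 80). Each step was of similar size, 3.31 to 4.36 times from lowest to middle and 2.53 to 4.07 times from middle to highest.

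The intracellular enzymes Pnp and Xdh differed little between the tiers. Pnp was at 182 to 232 CPM in the lowest and at 230 to 288 CPM in the highest tier, ranges that overlap slightly, with a log2 difference of 0.56 ± 0.0608 (SE, adjusted p = 2.16e-06 in edgeR). Within each library its level in the highest tier was 1.14 to 1.36 times that in the lowest. Xdh was at 404 to 453 CPM in the lowest tier, was highest in the middle tier at 511 to 656 CPM and was at 469 to 584 CPM in the highest, with a log2 difference of 0.54 ± 0.0423 (SE, adjusted p = 8.64e-08 in edgeR). In every library its middle tier exceeded both others. Without TMM scaling (edgeR's correction for composition) the 2 log2 values were 0.31 and 0.29.

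All 6 genes were thus called higher at the tip, in a comparison in which 78.4% of all genes tested were called and 36.9% were called higher. Each was higher in 6 of 6 libraries, as were 25.3% of all genes tested. The ranges of the highest and the lowest tier did not overlap for 5 of the 6, all but Pnp, as for 52.3% of all genes tested. By the size of the change the 4 stood further out, since a log2 difference of at least 3 was found for 4 of the 6 genes and for 1.38% of all genes tested. The genes were chosen with earlier results of these data known, so the tiers describe them and are not independent support. Cells of the highest tier were also deeper, at a median of 14737 to 23917 UMIs against 7002 to 8974 UMIs in the lowest, and the part of depth in these folds was not tested. Between 7.53% and 9.44% of ranked cells lay within 0.5 score units of the lower boundary and 3.76% to 4.35% within 0.5 of the upper one.

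**Figure D1:**
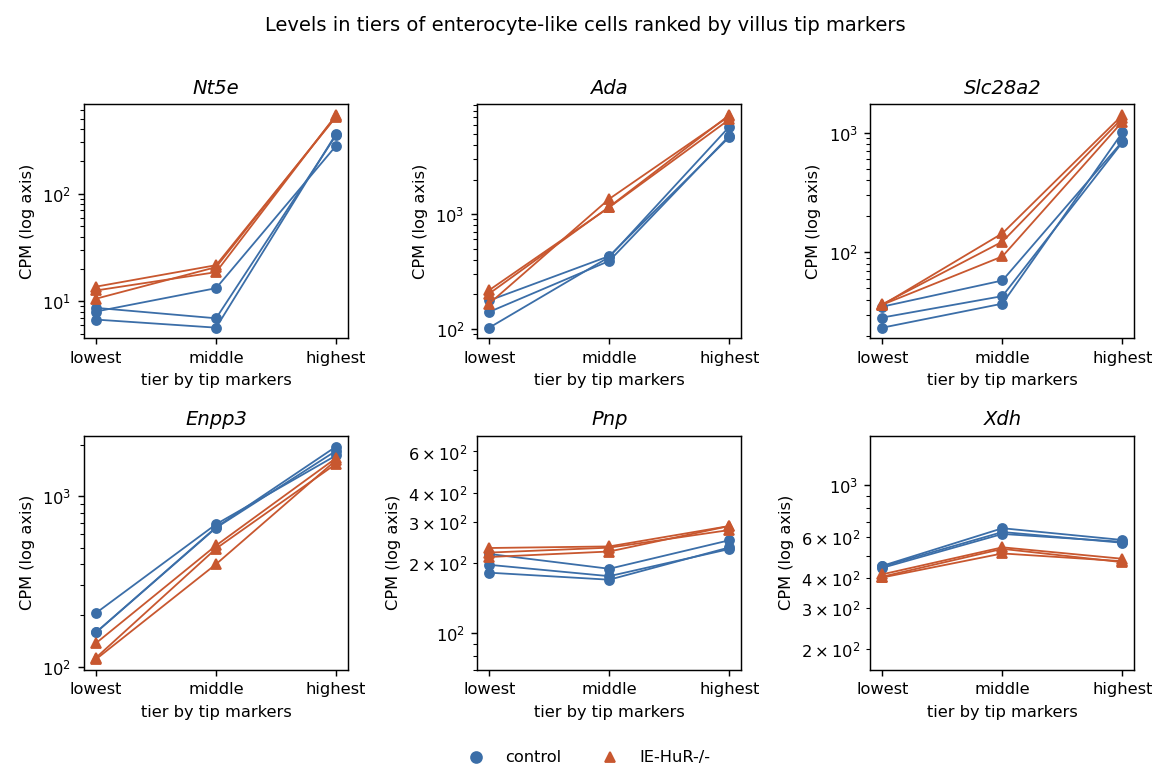
Level of each gene (CPM, log axis) in the lowest, middle and highest tier of enterocyte-like cells ranked by 7 villus tip markers, 1 line per library (circles control, triangles IE-HuR-/-). Nt5e stays at 5.71 to 21.7 CPM up to the middle tier and jumps to 279 to 539 CPM in the highest, Ada, Slc28a2 and Enpp3 climb at both steps, and Pnp and Xdh are nearly flat.

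Single cells were examined next, to see whether the genes are detected in the same enterocytes. Among cells thinned to 3000 UMIs, 6.94% to 10.8% of the lowest tier had at least 4 of the 6 genes, against 53.9% to 55.3% of the highest tier in control libraries and 66.9% to 73.4% in IE-HuR-/- libraries. The full set of 6 was found in at most 0.277% of the cells of the lowest tier. In the highest tier it was found in 5.86% to 7.45% of cells in control libraries and in 9.64% to 13.2% in the others, which did not overlap. The median tip score of that tier was 18.0 to 18.3 in control and 19.0 to 19.8 in IE-HuR-/- libraries. The part of this and of the share of each single gene was not tested.

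Co-detection was measured as the share of cells with both genes over the product of the 2 single shares, so that 1 stands for independence. Over all ranked cells the ratio for Nt5e and Slc28a2 was 1.93 to 3.28 (mean 2.47) in the 6 libraries, the highest of 15 pairs. Control libraries were at 2.38 to 3.28 and IE-HuR-/- libraries at 1.93 to 2.12. The ceiling of the ratio falls as single shares rise, and these were 9.73% to 10.9% against 15.5% to 17.2% for Nt5e and 23.5% to 27.4% against 34.7% to 39.6% for Slc28a2, so no comparison between the labels is drawn from it. The pair of ectoenzyme and carrier was found together in 7.10% to 13.1% of cells. Nt5e and Ada had a mean ratio of 1.48, Nt5e and Enpp3 of 1.42, Ada and Slc28a2 of 1.41, Slc28a2 and Enpp3 of 1.35 and Ada and Enpp3 of 1.20. All 6 pairs among these 4 genes were above 1 in every library. Pairs with Xdh lay between 0.95 and 1.08, and Enpp3 with Pnp at 0.95. Of the 15 pairs, 10 were above 1 in all 6 libraries. At 6000 UMIs it was 9, and Nt5e with Slc28a2 was at 2.05. In unthinned cells, where depth differs between cells, it was 15 of 15, with Nt5e and Slc28a2 at 1.60 and Pnp and Xdh at 1.48.

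Among cells of the highest tier alone the ratios of the 6 pairs among Nt5e, Ada, Slc28a2 and Enpp3 were smaller, whereas Enpp3 with Pnp and Pnp with Xdh moved up, to 0.98 each. A ratio cannot exceed 1 over the larger of the single shares, which are higher in that tier for these 4 genes, so the sets of cells are not compared further. There Nt5e and Ada had 1.11, Ada and Slc28a2 1.10, Nt5e and Enpp3 1.08, Slc28a2 and Enpp3 1.07 and Ada and Enpp3 1.03. Nt5e and Slc28a2 kept a mean of 1.54, at 1.67 to 1.85 in control and 1.26 to 1.35 in IE-HuR-/- libraries, which are likewise not compared. Cells share their library and their position on the villus, so these ratios describe 6 libraries and carry no test.

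**Figure D2:**
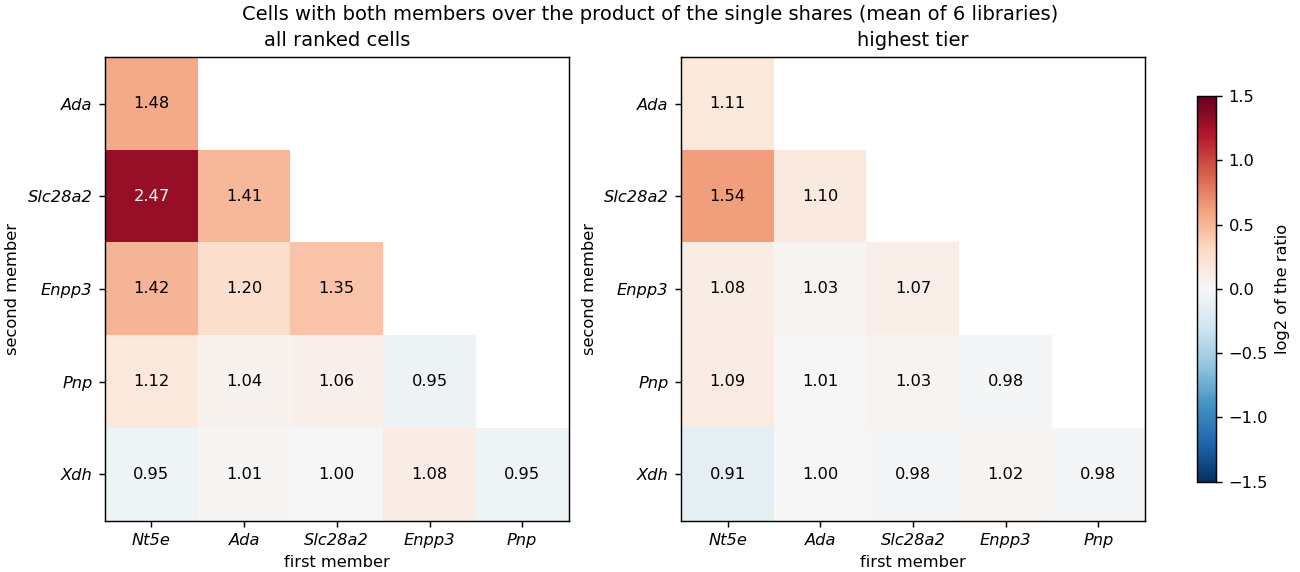
Share of cells with both genes over the product of the single shares, mean of 6 libraries, for all ranked enterocyte-like cells (left) and for the highest tier by tip markers (right), with the colour giving the log2 of the ratio. Nt5e with Slc28a2 is highest in both, at 2.47 and 1.54. The pairs with Xdh lie between 0.95 and 1.08 on the left and between 0.91 (with Nt5e) and 1.02 on the right.

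Across cell classes, each of the 6 genes had its highest mean in enterocyte-like or in ungated epithelial cells, but the order of the others differed. Nt5e averaged 564 ± 110 CPM (SD, n = 6) in ungated epithelial cells and 497 ± 125 CPM in enteroendocrine-like cells, ranges that overlapped, and both were above the 179 ± 52.9 CPM of enterocyte-like cells. The enteroendocrine-like value came from 161 to 385 UMIs in 23 to 40 cells per library. T-like cells were at 163 ± 8.93 CPM, a level that overlapped that of all enterocyte-like cells, goblet-like cells at 90.0 ± 63.9 CPM, and tuft-like and ISC/progenitor-like cells at 7.36 and 8.70 CPM. Nt5e is known on the surface of T cells as well as on epithelium.

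Ada averaged 2776 ± 692 CPM (SD, n = 6) in enterocyte-like and 3653 ± 494 CPM in ungated epithelial cells, with overlapping ranges, and 1268 ± 707 CPM in enteroendocrine-like cells, below both. Goblet-like cells followed at 858 ± 353 CPM and ISC/progenitor-like cells were lowest at 147 ± 65.3 CPM. Slc28a2 was at 1063 ± 119 CPM in ungated epithelial cells, above the 481 ± 124 CPM of enterocyte-like cells in every library, and at 51.9 to 283 CPM on average in the other epithelial classes. Enpp3 was at 797 to 1029 CPM in enterocyte-like cells, within the range of the ungated cells at 685 to 1280 CPM, and at 342 ± 80.4 CPM in goblet-like cells.

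Pnp and Xdh were highest in enterocyte-like cells, at 228 ± 26.1 and 502 ± 49.9 CPM (SD, n = 6), with no overlap with the next class. For Pnp that was ISC/progenitor-like cells at 115 ± 30.3 CPM, so it was the only one of the 6 that did not rank near the bottom in that class. For Xdh the next were ungated epithelial cells at 394 ± 38.4 CPM, and goblet-like cells were at 121 ± 32.6 CPM.

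Free RNA in the droplets can add to these levels. Erythroid-like cells, which should lack the brush border enzyme Enpp3, showed it at 110 ± 36.0 CPM (SD, n = 6), overlapping T-like cells at 67.0 to 205 CPM. Ada was at 287 ± 87.3 CPM (SD, n = 6) in erythroid-like cells, overlapping T-like cells at 230 to 516 CPM. Whether erythroid-like cells express Ada themselves was not tested. In cells thinned to 3000 UMIs, an Ada UMI was found in 37.7% to 65.2% of T-like and 29.9% to 54.5% of erythroid-like cells, and an Enpp3 UMI in 16.5% to 35.6% and 13.5% to 37.3%. These ranges overlapped, although within libraries the Ada share was higher in T-like cells in 5 of 6, all but control replicate 1. Ada and Enpp3 in T-like cells are read neither as expression nor as its absence, and the part of free RNA was not tested. Nt5e differed, with a UMI in 32.7% to 35.8% of T-like and 2.70% to 7.79% of erythroid-like cells, as did Slc28a2 (27.3% to 37.7% against 7.87% to 20.3%) and Pnp (11.1% to 14.7% against 2.36% to 6.49%). Xdh was found in 16.4% to 25.8% of T-like and 6.76% to 16.9% of erythroid-like cells. Without thinning, Nt5e was found in 41.9% to 50.1% of T-like cells (median 4161 to 5377 UMIs) and in 8.20% to 14.4% of erythroid-like cells (median 3760 to 5148 UMIs).

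**Figure D3:**
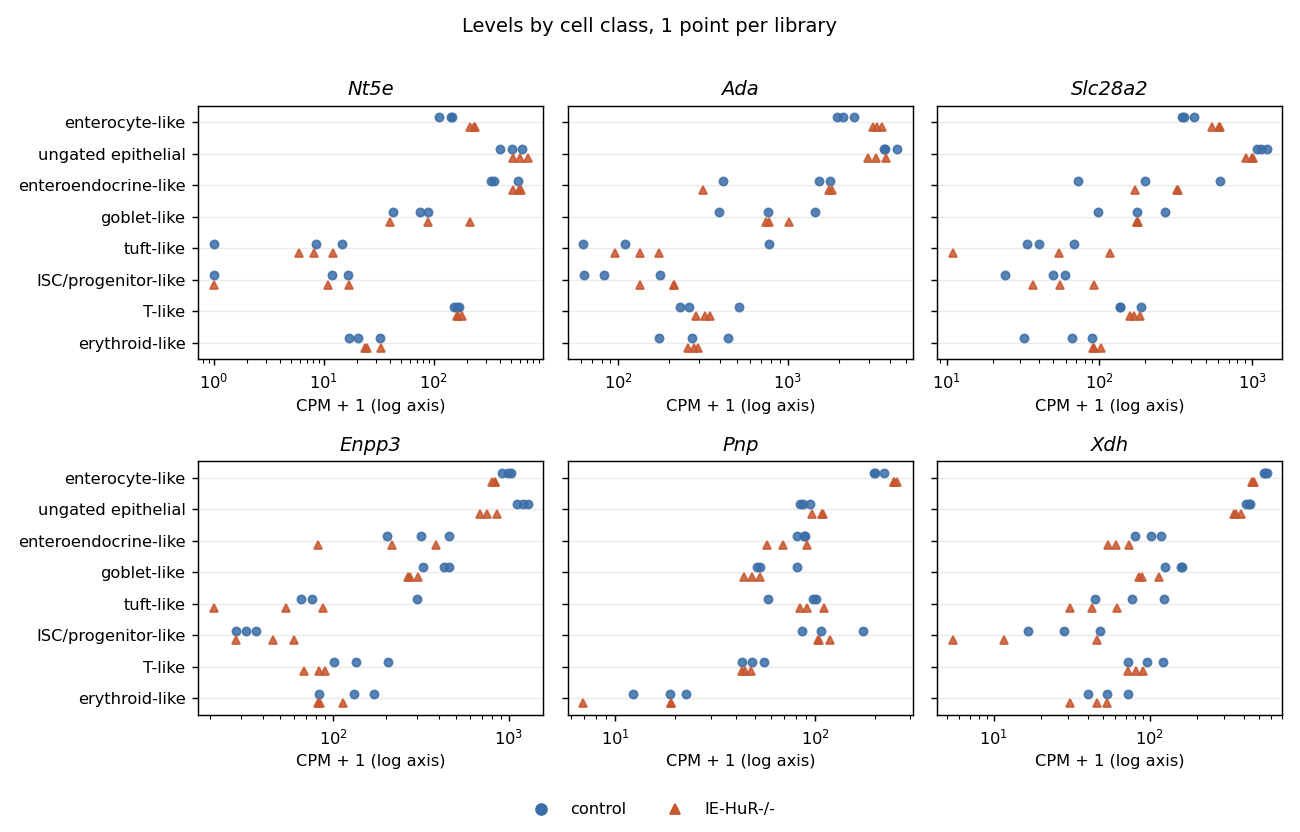
Level of each gene by cell class (CPM + 1, log axis), 1 point per library (circles control, triangles IE-HuR-/-). Enterocyte-like or ungated epithelial cells are at the top of each panel, Nt5e is also high in enteroendocrine-like cells at 497 CPM on average, and erythroid-like cells, which should lack brush border enzymes, are shown for comparison.

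In enterocyte-like cells, Nt5e, Ada, Slc28a2 and Pnp were higher in the IE-HuR-/- libraries, and Enpp3 and Xdh did not pass the test. Nt5e was at 143, 111 and 145 CPM in control replicates 1 to 3 and at 213, 235 and 229 CPM in IE-HuR-/- replicates 1 to 3. Every IE-HuR-/- library lay above every control library, and the log2 difference was 0.95 ± 0.124 (SE, adjusted p = 0.00229 in edgeR). Ada, the next enzyme, was at 2106, 1947 and 2474 CPM in control and at 3347, 3597 and 3186 CPM in IE-HuR-/- libraries. The groups did not overlap and the log2 difference was 0.81 ± 0.103 (SE, adjusted p = 6.92e-04 in edgeR). Slc28a2 was at 354, 346 and 415 CPM against 607, 616 and 548 CPM, again without overlap, with a log2 difference of 0.85 ± 0.0875 (SE, adjusted p = 1.28e-04 in edgeR). Its copy Gm14085, at under 1 CPM, had a log2 difference of 0.71 (adjusted p = 0.00969, edgeR).

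Pnp was at 197, 199 and 220 CPM in control and at 247, 257 and 248 CPM in IE-HuR-/- libraries. That smaller difference had a log2 difference of 0.47 ± 0.0451 (SE, adjusted p = 6.48e-10 in edgeR). Pnp2, its close copy, was at 171 ± 7.03 CPM in control and 157 ± 2.36 CPM in IE-HuR-/- libraries (SD, n = 3 each), with a log2 difference of 0.06 (adjusted p = 0.194, edgeR), and the difference between the copies was not tested.

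Enpp3 and Xdh, by contrast, had lower CPM in every IE-HuR-/- library. Enpp3 was at 982, 909 and 1029 CPM in control and at 837, 833 and 797 CPM in IE-HuR-/- libraries, and Xdh at 560, 534 and 546 against 466, 450 and 455 CPM. After TMM scaling, which shifted the median of all genes from −0.19 to −0.01 on the log2 scale, their log2 differences were −0.06 ± 0.0469 (SE, adjusted p = 0.262 in edgeR) and −0.08 ± 0.0409 (SE, adjusted p = 0.104 in edgeR). Without TMM scaling both passed the test, at −0.24 (adjusted p = 3.51e-05, edgeR) and −0.26 (adjusted p = 2.40e-06, edgeR), so their call depends on the scaling. Xdh also passed without IE-HuR-/- replicate 1, at −0.13 (adjusted p = 0.0263, edgeR). Without control replicate 2 both passed, at −0.14 (adjusted p = 0.0136, edgeR) and −0.13 (adjusted p = 0.0186, edgeR). Nt5e, Ada, Slc28a2 and Pnp stayed higher and past the threshold under each of these alternatives. Over all 21 alternatives run, single tiers and ungated cells among them, Enpp3 passed as lower under 7 and Xdh under 9.

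In this comparison 58.9% of all genes tested passed, 29.7% higher and 29.2% lower, and the groups did not overlap for 66.9%. Of the 6 genes, 4 passed, all of them higher, and all 6 had groups that did not overlap. The median log2 difference of the 6 was 0.64, against −0.01 for all genes tested. A sum over a class cannot tell fewer expressing cells from less RNA per cell. The share of thinned cells with a UMI was also taken, but it too rises with either and does not separate them. It covers only cells with at least 3000 UMIs, 1932 to 3688 per library. Nt5e was detected in 9.73% to 10.9% of enterocyte-like cells in control and 15.5% to 17.2% in IE-HuR-/- libraries, and Slc28a2 in 23.5% to 27.4% and 34.7% to 39.6%. Ada was detected in 52.0% to 62.9% and 65.5% to 66.3%, and Pnp in 40.3% to 46.6% and 47.2% to 51.9%. For Enpp3 the shares were 55.9% to 61.8% and 51.0% to 55.5%, and for Xdh 72.4% to 73.9% and 64.9% to 70.8%.

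**Figure D4:**
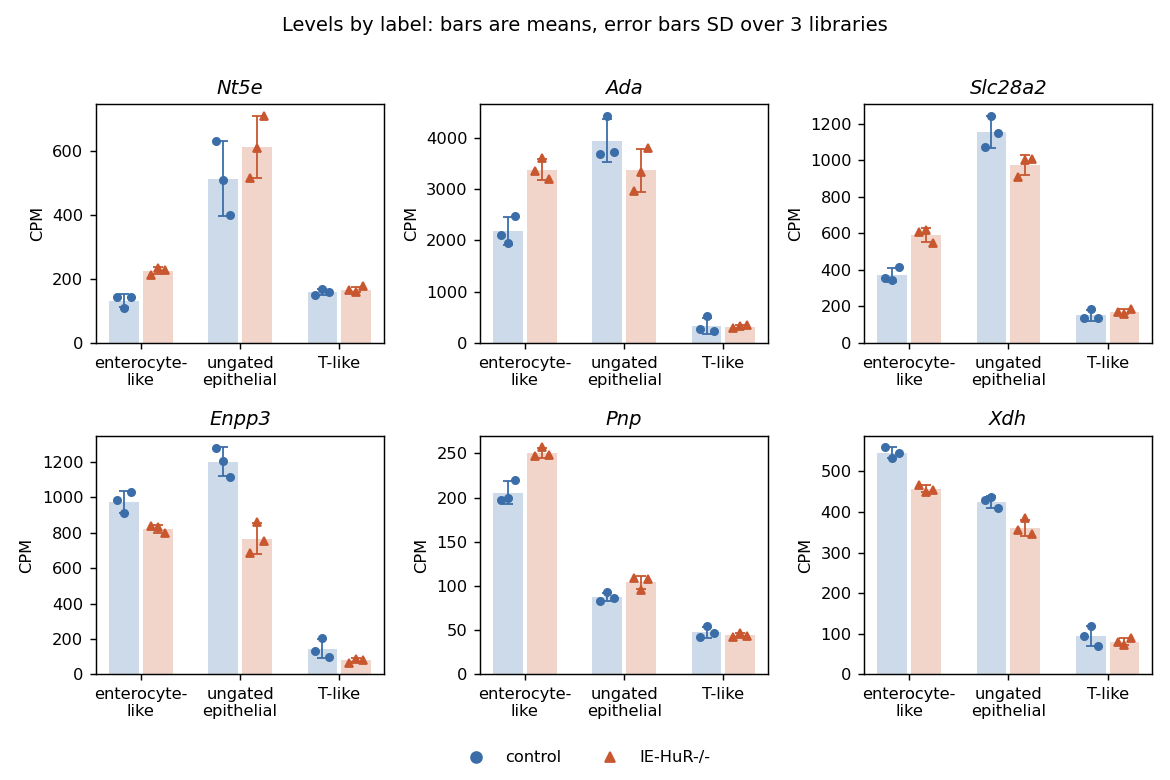
Level of each gene (CPM) in enterocyte-like, ungated epithelial and T-like cells, with bars for the mean and error bars for the SD of 3 libraries and points for the libraries (circles control, triangles IE-HuR-/-). In enterocyte-like cells Nt5e, Ada, Slc28a2 and Pnp are higher and Enpp3 and Xdh lower in every IE-HuR-/- library. In ungated epithelial cells Slc28a2, Enpp3 and Xdh are lower and Pnp is higher in every one.

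Markers of position along the gut moved with the labels in the same cells. The summed level of 4 distal genes (Fabp6, Slc10a2, Slc51a and Slc51b, bile acid handling) was 1245 to 1312 CPM in control and 3655 to 3885 CPM in IE-HuR-/- libraries, and 4 of 4 were called higher. Of 5 lower-villus genes (Reg3b, Reg3g, Ccl25, Gsdmc4 and Lypd8), 4 were higher and Ccl25 lower. Their summed level was 3556 to 4227 against 15012 to 15364 CPM, and Reg3b had the highest mean of the 5 in each tier. The log2 differences were 2.38 for Reg3b, 2.12 for Reg3g, 1.49 for Gsdmc4, 0.56 for Lypd8 and −0.20 for Ccl25. Gsdmc4 was at 2.80 CPM or less in each tier. Of all genes tested 29.7% were called higher and 29.2% lower. The 4 proximal genes summed to 7919 to 8327 against 8611 to 9405 CPM, with 1 higher and 2 lower, and Fabp1 made up most of that sum. Fabp1 was the 1 higher (log2 difference 0.37). Pdx1 and Onecut2 were lower, at −1.34 and −0.28 (adjusted p = 6.06e-08 and 1.82e-06, edgeR), and Gata4 did not pass. The 7 tip markers summed to 19949 to 22267 against 19293 to 20826 CPM, with 6 higher and Apoa4 lower. In each tier Apoa4 had the highest level of the 7, at 20914 to 27637 CPM in the highest tier. The part of gut position or villus position in the label differences was not tested.

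For Nt5e, Ada and Slc28a2 the label difference was also found within tiers, with the largest fitted values in the middle one, which was not itself tested against the others. Ada in the middle tier was at 390, 430 and 422 CPM in control and at 1356, 1156 and 1146 CPM in IE-HuR-/- libraries, a log2 difference of 1.70 ± 0.0740 (SE, adjusted p = 4.29e-14 in edgeR). Slc28a2 there was at 42.9, 58.0 and 37.1 CPM against 144, 123 and 92.3 CPM, a log2 difference of 1.52 (adjusted p = 0.0113, edgeR), and Nt5e at 6.97, 13.3 and 5.71 against 21.7, 20.8 and 18.7 CPM, a log2 difference of 1.35 (adjusted p = 0.034, edgeR). None of these groups overlapped. The shares of all genes without overlap or past the threshold within a tier are not given here. Over all enterocyte-like cells they were 66.9% and 58.9%. Nt5e in this tier lay below its range in erythroid-like cells, 16.0 to 31.3 CPM in control and 22.5 to 32.3 CPM in IE-HuR-/- libraries. Slc28a2 in control libraries was within its erythroid-like range, 31.0 to 88.5 CPM, and the part of free RNA was not tested. The cells of the middle tier had a median tip score of 9.66 to 10.4 in control and 10.8 to 11.3 in IE-HuR-/- libraries. Of the ranking markers, Clca4a averaged 197 CPM there in control and 650 CPM in IE-HuR-/- libraries. Egfr, Klf4, Krt20 and Pmp22 also had higher means, and Apoa4 and Creb3l3 had lower ones. The part of the score and its markers in the label differences of this tier was not tested. Enpp3 went the other way in the middle tier, with a log2 difference of −0.36 (adjusted p = 0.00192, edgeR).

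In the highest tier, Nt5e was at 350, 279 and 361 CPM in control and at 519, 528 and 539 CPM in IE-HuR-/- libraries, a log2 difference of 0.92 (adjusted p = 2.98e-04, edgeR). Ada had 0.71 there (adjusted p = 1.46e-05, edgeR), Slc28a2 0.80 (adjusted p = 1.01e-04, edgeR) and Pnp 0.50 (adjusted p = 9.14e-12, edgeR), and Enpp3 had 0.05 (adjusted p = 0.398, edgeR). In the lowest tier Nt5e had 0.75, Slc28a2 0.42 and Pnp 0.27, all past the threshold, and Ada had 0.58 and was not (adjusted p = 0.135, edgeR). Enpp3 there was at 159 to 207 CPM in control and at 111 to 138 CPM in IE-HuR-/- libraries. Xdh was lower in CPM in each tier. It was at 444 to 453 against 404 to 416 CPM in the lowest, 620 to 656 against 511 to 543 CPM in the middle and 568 to 584 against 469 to 485 CPM in the highest. These CPM are without TMM scaling. The levels of Nt5e and Slc28a2 in the lowest tier were within or below their ranges in erythroid-like cells of the same group. The part of free RNA in these 2 differences was not tested.

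Whether the label difference itself differed between the highest and the lowest tier was tested as an interaction, which 21.6% of all genes tested passed (14.9% with a positive and 6.67% with a negative value). Of the 6 genes only Pnp passed, with a label difference larger by 0.29 in the highest tier (standard error 0.0575, adjusted p = 3.03e-04, edgeR). It did not pass without TMM scaling, at 0.10 (adjusted p = 0.21, edgeR). Pnp2 gave 0.29 as well (adjusted p = 3.33e-04, edgeR). Nt5e had 0.27 (adjusted p = 0.184, edgeR), Slc28a2 0.46 (adjusted p = 0.274, edgeR), Enpp3 0.55 (adjusted p = 0.146, edgeR), Xdh 0.06 and Ada 0.19, none past the threshold. For Nt5e, Slc28a2 and Enpp3 the call rested on 1 control library. Without control replicate 3 the values were 0.41 for Nt5e (adjusted p = 0.0287, edgeR) and 0.67 for Slc28a2 (adjusted p = 8.98e-06, edgeR), and without control replicate 2 it was 0.36 for Enpp3 (adjusted p = 0.00118, edgeR). With ungated epithelial cells added, Enpp3 had 0.63 (adjusted p = 0.0186, edgeR) and Xdh 0.18 (adjusted p = 0.0201, edgeR), whereas Xdh without TMM scaling had −0.14 (adjusted p = 0.0341, edgeR).

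The direction differed for Ada and Slc28a2 in cells outside the gate. In epithelial cells that passed no gate, Ada was lower in the IE-HuR-/- libraries, at 2957, 3321 and 3806 CPM against 3685, 4426 and 3722 CPM, with overlap, and a log2 difference of −0.32 (adjusted p = 0.0109, edgeR). Slc28a2 was at 908, 1000 and 1008 CPM against 1070, 1243 and 1147 CPM, without overlap, and −0.34 (adjusted p = 0.00433, edgeR). Enpp3 there had −0.73 (adjusted p = 6.09e-06, edgeR) and Xdh −0.32 (adjusted p = 0.00663, edgeR), and Nt5e and Pnp had 0.16 each and did not pass. Among all genes 2689 passed in this fit. The shares of all genes that passed, passed as lower or did not overlap in ungated cells are not given here. The 7 tip markers summed to 15930.4 to 18029.8 CPM in ungated cells of control and to 10115 to 12060 CPM in those of IE-HuR-/- libraries, and the part of this in the values was not tested. These sums are not given by marker here. Of the ungated cells deep enough to be ranked by tip markers together with the enterocyte-like cells, 32.7% to 38.0% fell in the highest tier in control and 21.2% to 28.3% in IE-HuR-/- libraries. With these cells added to the enterocyte-like sums, Nt5e, Ada and Slc28a2 remained higher, at 0.73, 0.64 and 0.60, and Enpp3 and Xdh passed as lower, at −0.17 and −0.14.

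**Figure D5:**
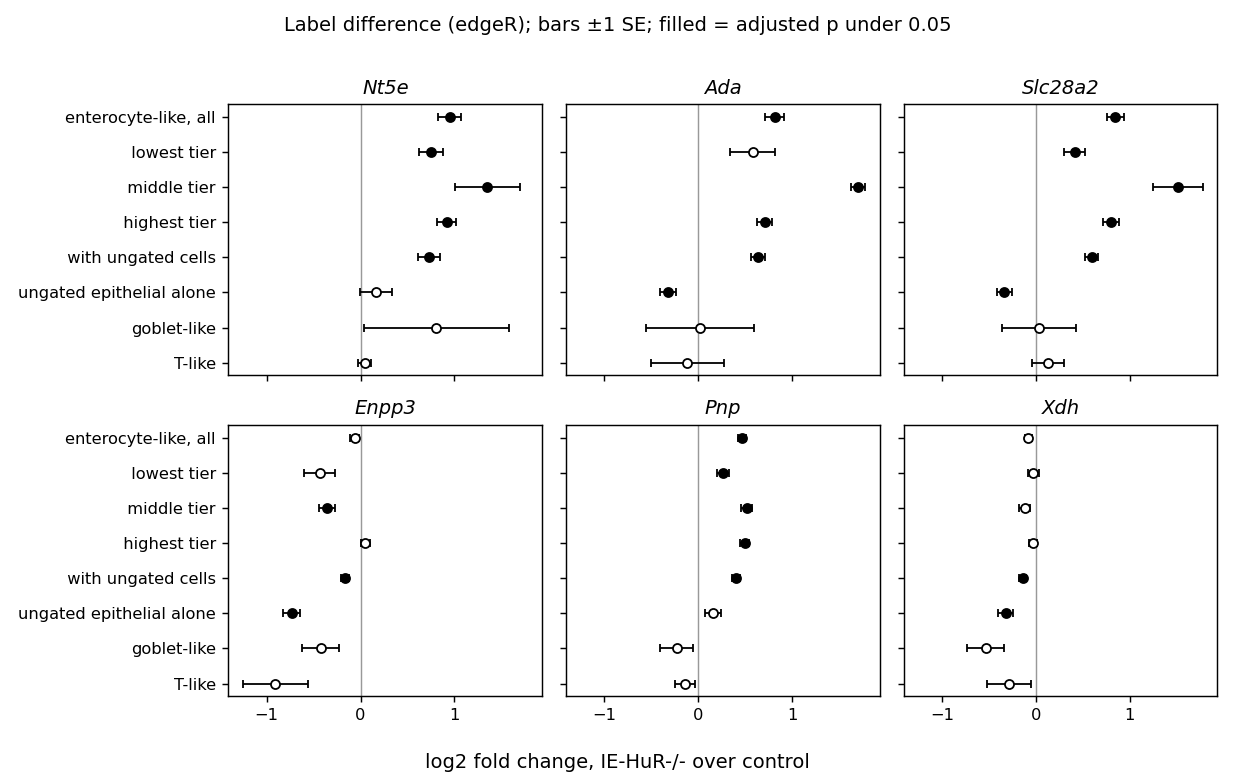
Log2 fold change of IE-HuR-/- over control libraries for each gene in enterocyte-like cells (all, by tier, with ungated cells added), in ungated epithelial cells alone and in goblet-like and T-like cells, with bars of 1 standard error and filled points for an edgeR adjusted p under 0.05. The middle tier has the largest values for Nt5e, Ada and Slc28a2 (1.35, 1.70 and 1.52), and Ada and Slc28a2 are below 0 in ungated epithelial cells. Nt5e in the lowest and middle tiers is below its level in erythroid-like cells of the same group.

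Goblet-like, ISC/progenitor-like and T-like cells were tested in the same way, and none of the 6 genes passed with all libraries and the same settings. Enteroendocrine-like and tuft-like cells were not tested. In goblet-like cells (136 to 350 per library) 0 of 6 genes passed in edgeR, where 6.19% of all genes tested did (3.63% higher and 2.57% lower), and 1 had an unadjusted p under 0.05. This was Xdh, at 147 ± 20.3 CPM in control and 95.4 ± 15.9 CPM in IE-HuR-/- libraries (SD, n = 3 each), with no overlap and a log2 difference of −0.53 ± 0.202 (SE, adjusted p = 0.142 in edgeR). Enpp3 was at 402 ± 69.4 against 281 ± 20.8 CPM, also without overlap, with −0.42 (adjusted p = 0.24, edgeR). Without control replicate 3, whose goblet-like cells had a median of 658 UMIs, both passed, Xdh at −0.73 (adjusted p = 8.25e-04, edgeR) and Enpp3 at −0.63 (adjusted p = 5.07e-04, edgeR). The groups did not overlap for 29.3% of all genes tested in this class. DESeq2 called 0 of the 6 as well. Over 15 alternatives Enpp3 passed as lower under 3 and Xdh under 4, and Slc28a2 passed as higher under 1, with cells passing 2 gates assigned (0.77, adjusted p = 0.0191, edgeR).

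In ISC/progenitor-like cells, 8 to 28 per library, Ada, Slc28a2 and Pnp had enough UMIs to be tested and 0 of the 3 passed in edgeR, where 1.15% of all genes tested did (0.384% higher and 0.768% lower). Ada was at 106 ± 61.0 CPM in control and 187 ± 45.5 CPM in IE-HuR-/- libraries (SD, n = 3 each) and had the 1 unadjusted p under 0.05, with a log2 difference of 0.85 ± 0.349 (SE, adjusted p = 0.287 in edgeR). Nt5e, Enpp3 and Xdh, with 0 to 3, 3 to 11 and 1 to 9 UMIs per library, were below the filter.

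In T-like cells, in which villin-Cre is not active, 0 of 6 genes passed in edgeR, where 4.11% of all genes tested did (2.38% higher and 1.73% lower), and 0 had an unadjusted p under 0.05. Nt5e was at 151, 168 and 159.6 CPM in control and at 165, 159.5 and 177 CPM in IE-HuR-/- libraries. These groups overlapped, and the log2 difference was 0.04 ± 0.0672 (SE, adjusted p = 0.799 in edgeR), beside 0.95 in enterocyte-like cells, and the difference between the classes was not tested. Slc28a2 was at 135, 187 and 135 CPM against 168, 159 and 184 CPM, with 0.13 (adjusted p = 0.775, edgeR). Without control replicate 2 it was 0.33 and passed (adjusted p = 0.00218, edgeR), as did Ada at 0.37 (adjusted p = 0.0149, edgeR), which with all libraries was at −0.11. Without control replicate 3 Xdh passed as lower at −0.47 (adjusted p = 0.0244, edgeR), from −0.29 with all libraries. Enpp3 was at 134, 205 and 99.8 CPM against 67.0, 89.4 and 82.5 CPM, without overlap, as for 21.5% of all genes tested, and had −0.91 ± 0.346 (SE, adjusted p = 0.307 in edgeR). Control replicate 2 had the highest Ada and Enpp3 levels in T-like cells, 516 and 205 CPM, and the highest shares of erythroid-like cells with their UMIs, 54.5% and 37.3%. Among T-like cells with a UMI of Trdc (gamma-delta-like), Nt5e was at 154.1 to 166.7 CPM in control and 167.4 to 198.2 CPM in IE-HuR-/- libraries, without overlap. In CD8-like cells it was at 143 to 159 and 147 to 156 CPM, with overlap. The subsets were not tested, and the share of all genes without overlap in them is not given. Gamma-delta-like cells numbered 476 to 735 in control and 561 to 636 in IE-HuR-/- libraries, and CD8-like cells 177 to 357 and 396 to 439. CD4-like cells numbered 6 to 12 and 48 to 58, and the part of this mix in the T-like values was not tested.

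To place the 6 genes among the other genes of purine metabolism, 71 further symbols were listed by role, of which 69 were in the count tables. In the comparison of the tiers 41 were tested, and 16 were higher and 18 lower in the highest tier, where 36.9% of all genes tested were higher and 41.4% lower. De novo synthesis, which builds purines from small precursors, was lower for 7 of 8 genes tested, with a median log2 difference of −1.33 against −0.06 for all genes. Adsl fell from 6.11 to 0.919 CPM on average, a log2 difference of −2.47 (adjusted p = 2.33e-08, edgeR), and Adss, an adenylosuccinate synthase, was the exception at 0.98 (adjusted p = 4.54e-09, edgeR). Of 5 salvage genes, which return bases and nucleosides to nucleotides, Aprt, Adk and Dguok were lower and none was higher. Adk, adenosine kinase, competes with Ada for adenosine and went from 51.2 to 14.95 CPM, a log2 difference of −1.54 (adjusted p = 2.49e-11, edgeR). Of 9 genes of extracellular nucleotide breakdown tested, 5 were higher and 1 lower, among them Entpd8, which cleaves ATP and ADP at the cell surface, at 1.93 (adjusted p = 1.17e-10, edgeR). Of 3 urate transport genes tested, 2 were higher and 1 lower. The 2 higher were Slc17a4, a phosphate and urate carrier, at 2.14 (adjusted p = 1.01e-07, edgeR) and Abcg2, a urate exporter, at 0.66 (adjusted p = 2.10e-08, edgeR).

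Transport and interconversion were mixed. Slc28a3, the broad nucleoside carrier of the same family as Slc28a2, was lower at the tip, from 4.53 to 0.239 CPM (log2 difference −3.90, adjusted p = 7.40e-07, edgeR), the opposite of Slc28a2, and Slc28a1 did not pass. Nt5c2, a cytosolic nucleotidase, rose by 3.01 on the log2 scale (adjusted p = 3.13e-07, edgeR). Of the receptors P2ry2 had 1.94 (adjusted p = 5.72e-10, edgeR) and Adora2b, a receptor for the adenosine that Nt5e makes, −0.90 (adjusted p = 1.12e-04, edgeR).

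Between the labels 50 of the listed genes were tested in enterocyte-like cells, and 12 were higher and 19 lower in IE-HuR-/- libraries, beside 29.7% and 29.2% of all genes tested. Abcg2 was at 215 ± 3.10 CPM in control and 339 ± 7.08 CPM in IE-HuR-/- libraries (SD, n = 3 each), a log2 difference of 0.84 (adjusted p = 1.43e-16, edgeR). The others called higher were Entpd2, Entpd5, Entpd8, Ampd3, Urah, Nt5c2, Hprt, Adss, Slc2a9, Adora2a and P2ry6. Akp3, an intestinal alkaline phosphatase, was at 34.6 ± 5.79 against 4.29 ± 0.279 CPM, a log2 difference of −2.83 (adjusted p = 1.41e-04, edgeR). Entpd7 was at 291 ± 17.001 against 169 ± 3.50 CPM, at −0.60 (adjusted p = 1.10e-12, edgeR). The others called lower were Entpd6, Enpp4, Enpp5, Alpi (a marker of the enterocyte gate), Slc28a1, Slc29a3, Slc43a3, Adal, Itpa, Adk, Dguok, Prps1, Pfas, Gmps, Slc17a4, Adora2b and P2ry1. In goblet-like cells 1 of 29 tested was higher (Abcg2) and 3 were lower (Entpd7, Akp3 and Gda), beside 3.63% and 2.57% of all genes tested. In ISC/progenitor-like cells none of 12 passed. In T-like cells none of 48 was higher and Entpd1, Entpd5 and Akp3 were lower, beside 2.38% and 1.73% of all genes tested. Akp3 was also lower in enterocyte-like cells, and the part of free RNA in these calls was not tested. In the interaction of label and tier 11 of 45 were positive and 2 negative, beside 14.9% and 6.67% of all genes tested.

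The genes most like each member were sought over 48 sums (6 libraries by 5 other epithelial or T classes and the 3 tiers) among 9449 genes, by Pearson's r of log2(CPM + 5) across sums, which share libraries and are not independent. Ada was most like Clca4a (r = 0.98), Ly6m and Slc23a4, and Slc28a2 most like Clca4a (0.93), Ly6m and Ada (0.90). Nt5e was most like Fbxo32 (0.90), Jun (0.85) and Slc28a2 (0.84), and Enpp3 like Apoa4 (0.94), Pmp22 and Muc3. Clca4a, Apoa4 and Pmp22 are among the tip markers that defined the tiers. Pnp stood apart with Sucla2 (0.92), Mdh2 and Ppp1r14d, and Xdh with Gda, guanine deaminase (0.97), and Asah2. Among the members themselves r was 0.90 for Ada and Slc28a2 and −0.17 for Nt5e and Pnp.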

How the data were processed

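Single-cell libraries of 3 control and 3 IE-HuR-/- mice were analysed. The files hold counts of UMIs for each gene and barcode, made by the authors with Cell Ranger and deposited without normalization. The labels name a 5′ kit and mm10, and the study's methods a 3′ kit and a human reference, which the mouse gene names in the files do not match. Cells with at least 200 genes were gated on marker UMIs (for enterocyte-like cells, at least 10 UMIs and 1% of the cell's UMIs from 12 genes). Cells passing more than 1 gate were left out, no doublet caller was run, and cells passing none with at least 3 UMIs of epithelial genes were kept as ungated epithelial. Cells passing more than 1 gate numbered 578 to 1944 per control library, of 9112 to 15041 cells. In IE-HuR-/- libraries they numbered 333 to 479, of 8600 to 8938 cells. Control replicate 2 had the most, 1944 of 15041. UMIs were summed per library and class, and sums were compared in R 4.3.3 by the robust quasi-likelihood test of edgeR 4.0.16, two-sided, after TMM scaling and filterByExpr (smallest count 10, smallest total 15), with Benjamini-Hochberg adjustment over all genes tested and a threshold of 0.05. The main edgeR fits, but not the alternatives, were also run on simulated data with known changes in a minority of genes. The outcome is not given here, and no result rests on it. Alternatives were DESeq2 1.42.0, other scaling, filters, gates and thinning, the replicate number as a block, and leaving out each library. Those that used ungated cells or the middle tier were added after seeing the data. Pairs of libraries within a group differed by more than sampling noise (chi-square per degree of freedom 5.06 to 12.9), and pairs shared 22 to 44 barcodes. The labels do not say how replicates were raised, so p-values measure the spread between these libraries, and intervals of counts are not given. Named were the 6 genes, their close copies, Elavl1, the 3 genes most like each member (1 of them is not reported here), and, of the listed purine genes, those called in enterocyte-like cells. In the comparison of tiers examples were chosen after their values were seen. The members and lists were chosen with earlier results of these data known.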

Additional observations from a re-analysis of the deposited data

Results flagged for a closer look

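Slc28a2 stood on opposite sides in gated and ungated epithelial cells. The log2 ratio of mean CPM, IE-HuR-/- over control, was 0.67 in enterocyte-like cells, with every IE-HuR-/- library above every control library, and −0.25 in ungated epithelial cells, with every one below. The difference between the 2 was not tested, nor is it known whether the ungated cells are a type of their own. They had 28.5% to 32.8% mitochondrial UMIs against 13.7% to 15.2% in enterocyte-like cells, and their 7 tip markers summed to 15930.4 to 18029.8 CPM in control and 10115 to 12060 CPM in IE-HuR-/- libraries. These sums are not given by marker here. The share of all genes tested whose groups did not overlap was 66.9% in enterocyte-like cells and is not given for ungated cells.

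Pnp had a label difference that itself differed between the tiers, larger by 0.29 on the log2 scale in the highest tier than in the lowest (adjusted p = 3.03e-04, edgeR interaction term). Without TMM scaling it was 0.10 (adjusted p = 0.21, edgeR), and its copy Pnp2 also gave 0.29. The cause was not tested.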

How the results depend on the processing

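All 6 genes stayed higher in the highest tier and past the threshold under the 14 alternatives run. In enterocyte-like cells 7535 genes were called, 6773 to 7265 on leaving out 1 library, 7375 with the replicate block, 4072 in the lowest tier and 2689 in ungated epithelial cells alone. The labels name no shared litter or day for a replicate number, and the deviations of samples with the same number correlated at −0.13 to −0.03 in enterocyte-like and −0.20 to 0.15 in goblet-like cells (3 pairs each). With the block Xdh passed as lower at −0.11 (adjusted p = 0.0258, edgeR), and no other of the 6 genes changed its call there. Log2 differences in enterocyte-like cells that changed sign were Ada −0.32 and Slc28a2 −0.34 in ungated cells alone, and Enpp3 0.059 with stricter gates and 0.048 in the highest tier.

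In goblet-like cells 473 genes were called, 805 without a filter, 279 by DESeq2, 225 in cells of 500 genes or more and no more than 25% mitochondrial UMIs, 1087 with stricter gates, 1928 with cells passing 2 gates assigned, 1652 without the top 5% of cells by UMIs and 161 to 1219 on leaving out 1 library (1219 without control replicate 3). Signs changed there for Nt5e (−0.77 with looser gates, −0.54 without the top 5%, −0.038 to 1.25 on leaving out 1 library), Ada (−0.040 without TMM scaling, −0.48 with looser gates, −0.45 without the top 5%, −0.37 to 0.68 on leaving out 1 library), Slc28a2 (−0.036, −0.53 and −0.42 under the same 3, −0.32 to 0.50 on leaving out 1 library) and Pnp (0.22 with stricter gates, 0.20 with cells passing 2 gates assigned). Without the top 5% Enpp3 and Xdh passed as lower, at −0.85 each.

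In ISC/progenitor-like cells 33 genes were called, 93 without a filter, 67 with the replicate block, 17 with looser gates, 0 with stricter gates, 5 without the top 5% and 15 to 39 on leaving out 1 library. Pnp was at 0.013 with looser gates, 0.0045 with cells passing 2 gates assigned and −0.52 to 0.15 on leaving out 1 library. In T-like cells 463 were called, 926 without a filter, 282 with the replicate block and 159 to 992 on leaving out 1 library (992 without control replicate 3). Ada was at 0.15 with looser gates, 0.0064 with stricter gates, 0.018 with cells passing 2 gates assigned and −0.34 to 0.37 on leaving out 1 library, and Nt5e at −0.011 to 0.11. In the interaction Ada was at −0.0088 without TMM scaling, −0.22 with at least 500 genes per cell and −0.079 to 0.47 on leaving out 1 library, and Xdh at −0.14 without TMM scaling, −0.037 without a filter, −0.028 after thinning to 6000 UMIs and −0.056 with at least 500 genes. The causes were not tested. Few goblet-like and ISC/progenitor-like cells limit those comparisons.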
